A study of Mus musculus with 20 samples.

Results

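Ribosome biogenesis factors are the proteins that make, modify, fold and assemble pre-ribosomes in the nucleolus. Their expression was examined here in mouse liver as a list of 49 genes chosen by function and matched by gene symbol. The list was drawn up with earlier results of these data known. Of the 49 genes, 42 had an intact line in the deposited table, against 23993 of 35504 genes in the whole table, and all 42 passed the filter on low counts that left 10207 genes for testing. The 7 others had no intact line and were not tested. The counts of Rrp9 were moved by 1 place. The lines of Imp3, Imp4, Bms1, Nip7, Mrto4 and Brix1 held a 1 followed by 0. The 42 tested genes fell into 4 groups by role. These were 6 proteins of the snoRNPs (complexes of small nucleolar RNAs with their proteins), 17 factors of the small (40S) subunit, 15 of the large (60S) subunit and 4 abundant or multifunctional nucleolar proteins.

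The study asked what oral combined contraceptives (OC) and voluntary wheel running (VWR) do in female mice. Liver RNA of 20 individual mice was sequenced, 5 in each of 4 groups: OC diet with running (OC.VWR), OC diet without running (OC.Sed), vehicle diet with running (Con.VWR) and vehicle diet without running (Con.Sed). 1 library was made per animal. The strain, age, hormones, dose and length of treatment are not given in the sources used here.

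Ribosomes are built around ribosomal RNA that is transcribed in the nucleolus, guided by snoRNPs that modify it, and folded by assembly factors into precursors of the small and the large subunit. Many of these factors are coded by genes that growth signals and the transcription factor Myc are known to raise together. Liver cells make ribosomes continuously and step up the process when they grow or regenerate.

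Total counts ran from 12769367 to 14757592 per library in OC.VWR mice, 12172401 to 14759028 in OC.Sed, 13886098 to 16134618 in Con.VWR and 10883936 to 14260634 in Con.Sed. These totals cover the intact lines only. Levels are in CPM, the counts of a gene after libraries were brought to equal size. In a principal component analysis of log2 CPM the leading axis (39.2% of the variance) split OC from vehicle libraries, and the next axis (11.6%) set 1 library apart, Con.Sed replicate 2, at a score of 53 against -17.1 to 11.2 in the other libraries. Hepatocyte markers summed to 76900 to 114000 CPM in OC.VWR, 89200 to 114000 in OC.Sed, 134000 to 189000 in Con.VWR and 151000 to 180000 in Con.Sed, so every library held abundant hepatocyte RNA.

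The E-box CACGTG, the sequence to which Myc and related factors bind, was looked for in RefSeq promoter windows on GRCm38.p6, each holding 250 bases before and 50 bases after an annotated start. The motif reads the same on both strands. It stood in 10 of the 39 windows (25.6%) of the 35 tested genes that had an entry, and in 2349 of 32851 windows (7.15%) over all genes. The latter windows cover 27025 genes, whether tested here or not, and were not matched for expression or base composition. Whether the higher share is particular to the ribosome biogenesis genes was therefore not tested. Among the genes that rose on OC (below), 7 of 17 windows (41.2%) held it, and among the other tested genes 3 of 22 (13.6%). These windows belong to 15 and 20 genes. The split was made by the calls in these data, and a link between motif and rise was not tested. In the 250 bases before the start alone, 5.13% of the windows of tested genes held it, against 6.02% of all windows, because in 8 of the 10 genes the motif lay 3 to 41 bases after the start. A match describes the letters of a window and not a bound site. The 7 genes that rose on OC and held the motif are shown, picked after their values were seen, each with 10 bases on either side where the window reaches, 5′ to 3′ on the gene's strand and with the motif in capitals.
Grwd1 (chr7:45830740-45830765, minus strand): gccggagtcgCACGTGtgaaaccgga
Ltv1 (chr10:13193094-13193119, minus strand): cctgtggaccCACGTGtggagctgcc
Mybbp1a (chr11:72441357-72441376, plus strand): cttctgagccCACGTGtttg
Nop2 (chr6:125131813-125131838, plus strand): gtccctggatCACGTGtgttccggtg
Tsr1 (chr11:74898094-74898119, plus strand): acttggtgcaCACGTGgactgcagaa
Utp18 (chr11:93885771-93885796, minus strand): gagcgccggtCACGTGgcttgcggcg
Wdr43 (chr17:71616222-71616247, plus strand): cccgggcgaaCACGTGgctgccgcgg
The whole upstream stretches of 2 genes are shown for contrast, those with the smallest adjusted p on OC among genes that have an entry and whose upstream stretch lies outside the annotated gene. Rrp12, Rrs1 and Bop1 have no entry. In Nop2 the motif (capitals) began 60 bases before the start, and in Nop56 the 300 bases held none.
Nop2 (chr6:125131633-125131882, plus strand): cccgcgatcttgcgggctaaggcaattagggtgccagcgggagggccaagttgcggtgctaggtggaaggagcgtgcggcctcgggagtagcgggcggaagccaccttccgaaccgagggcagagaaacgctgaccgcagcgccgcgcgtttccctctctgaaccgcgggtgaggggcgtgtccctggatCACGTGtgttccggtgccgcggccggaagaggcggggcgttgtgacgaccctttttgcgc
Nop56 (chr2:130274162-130274411, plus strand): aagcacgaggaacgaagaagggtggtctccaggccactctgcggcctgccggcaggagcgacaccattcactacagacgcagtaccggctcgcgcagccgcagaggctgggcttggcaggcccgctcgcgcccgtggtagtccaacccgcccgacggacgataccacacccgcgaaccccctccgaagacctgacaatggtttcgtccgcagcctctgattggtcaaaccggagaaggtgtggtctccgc

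On the OC diet, 18 of the 42 ribosome biogenesis genes rose and 0 fell when the OC effect was averaged over running and sedentary mice. Of all genes tested, 11.8% were higher and 10.9% lower in the same comparison. The median log2 fold change was 0.21 over the 42 genes and 0.00 over all genes, and 37 of the 42 differences were positive. The differences were small. Only Rrp12 and Rrp1b passed 1.5-fold, and the 18 genes that rose ran from 1.12-fold (Noc2l) to 1.73-fold (Rrp12). Here a gene is said to rise or fall where its adjusted p was below 0.05 in edgeR's quasi-likelihood test, with Benjamini-Hochberg adjustment over the 10207 genes. At an unadjusted p below 0.05 there were 22 higher and 0 lower genes of the 42. Of the 10207 genes tested, 3611 reached that level in either direction. DESeq2 and limma voom also called 0 of the 42 genes lower. In 0 of the 42 genes did all 10 OC libraries lie above all 10 vehicle libraries, a separation seen in 1.69% of all genes tested.

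**Figure D1:**
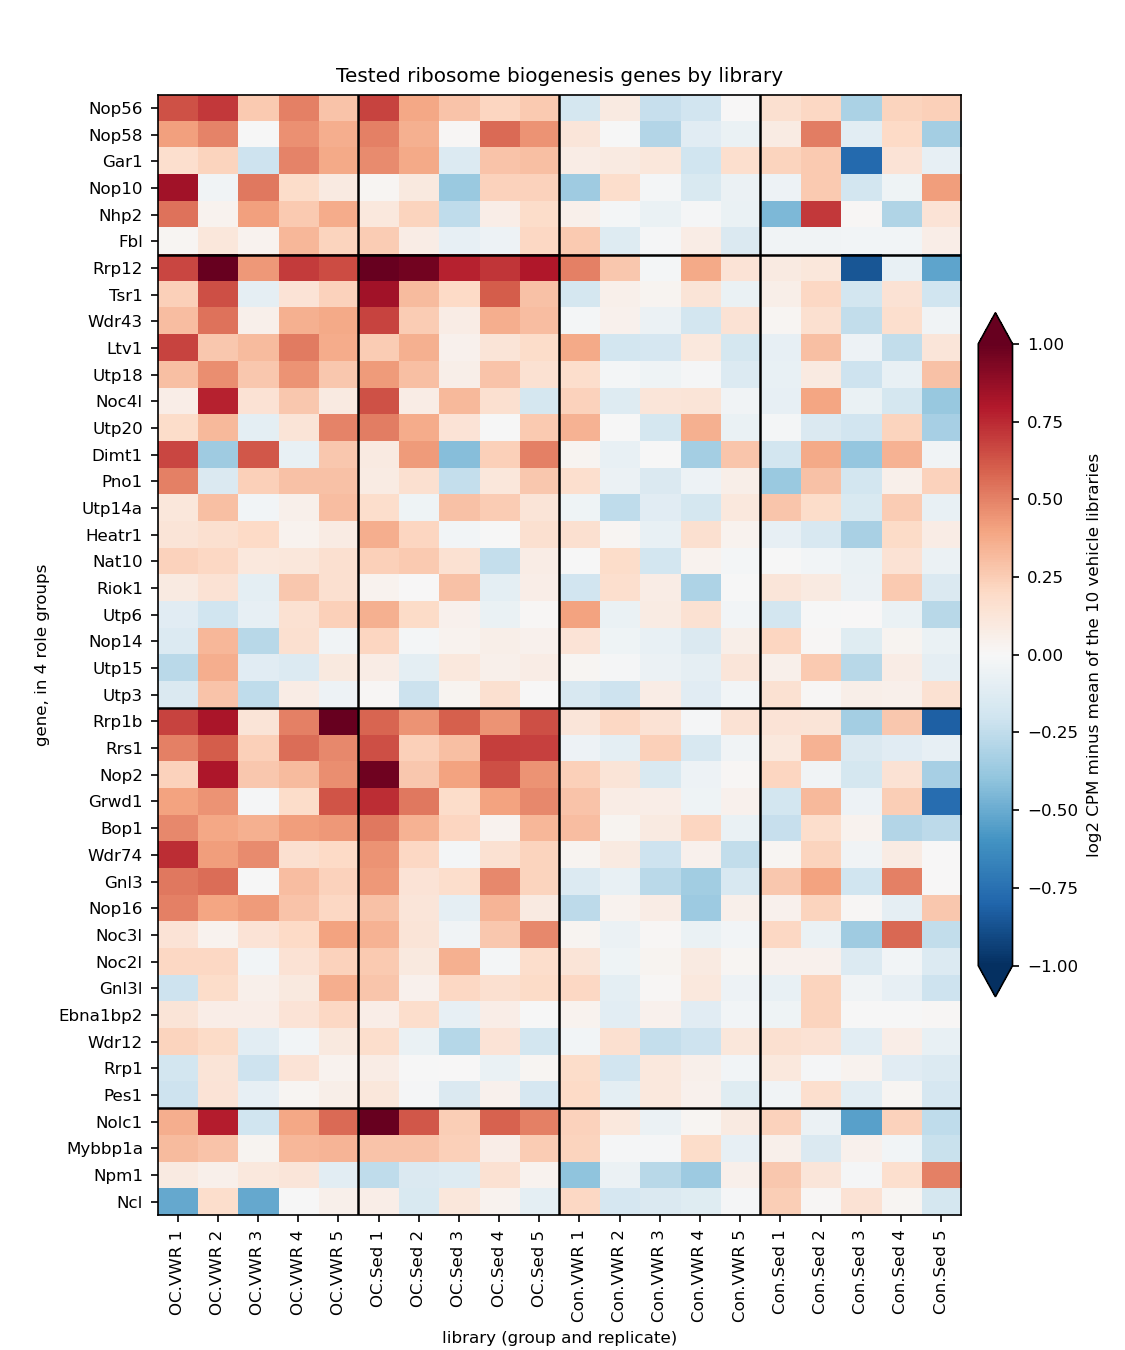
Log2 CPM of each tested gene (rows, in 4 role groups) in each library (columns), minus the gene's mean over the 10 vehicle libraries; colours stop at 1 and -1. Red dominates in the 10 OC libraries at left for the genes at the top of each role group, while Npm1 and Ncl in the lowest rows show no such split by diet.

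Over the 42 genes, the mean log2 CPM was 4.70 ± 0.09 in OC.VWR, 4.68 ± 0.10 in OC.Sed, 4.47 ± 0.05 in Con.VWR and 4.47 ± 0.13 in Con.Sed (SD, n = 5 each). The running groups met only at their ends, at 4.55 to 4.78 in OC.VWR and 4.43 to 4.55 in Con.VWR. The sedentary groups overlapped, at 4.55 to 4.84 in OC.Sed and 4.31 to 4.62 in Con.Sed, where the highest library was replicate 2, the one set apart above. Of a library's counts on intact lines, the genes held 0.148 to 0.176% in OC.VWR and 0.155 to 0.169% in OC.Sed. They held 0.12 to 0.142% in Con.VWR and 0.123 to 0.16% in Con.Sed. In a whole tissue, more cells of a type and more RNA per cell cannot be told apart.

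**Figure D2:**
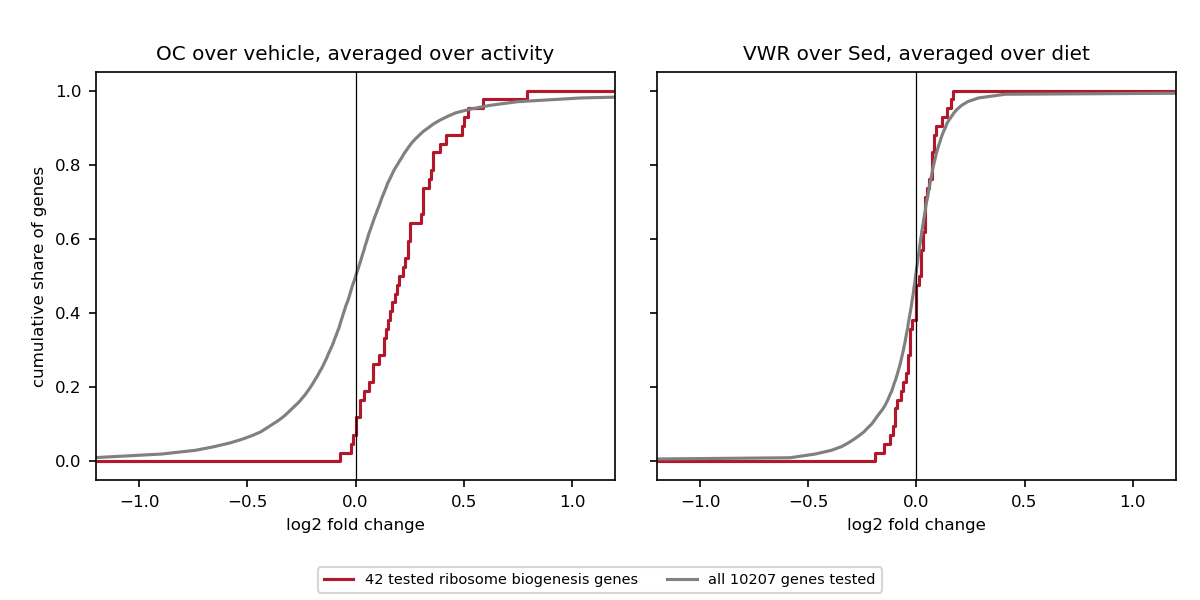
Cumulative share of genes by log2 fold change for the 42 tested ribosome biogenesis genes (red) and all 10207 genes tested (grey), for OC over vehicle (left) and running over sedentary (right). The red curve lies right of the grey one over most of its length for OC, with medians of 0.21 and 0.00, and the curves lie close together for running, with medians of 0.01 and 0.00.

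Among the snoRNP proteins, Nop56 and Nop58 rose on OC, 2 of 6. Both belong with fibrillarin (Fbl) to the core of box C/D snoRNPs, which guide methylation of ribosomal RNA. Nop56 reached 34.8, 36.5, 26.8, 31.8 and 27.3 CPM in OC.VWR mice, against 19.8, 23.8, 19, 19.6 and 22.4 CPM in Con.VWR mice. It reached 35.8, 29.3, 27.3, 25.9 and 26.8 CPM in OC.Sed mice, against 24.9, 25.8, 17.9, 26.1 and 26.3 CPM in Con.Sed mice. The running groups did not overlap, while OC.Sed and Con.Sed overlapped between 25.9 and 26.3 CPM. The log2 fold change was 0.42 (SE 0.08, adjusted p = 0.000845) averaged over activity and 0.59 (SE 0.12, adjusted p = 0.00224) in running mice. Nop58 was 1.28-fold higher (adjusted p = 0.0107), with 17.2 to 25.6 CPM in the 10 OC libraries and 13.6 to 24.7 CPM in the 10 vehicle libraries. Fbl, the methyltransferase itself, averaged 27.2 ± 2.54 CPM in OC.VWR, 26 ± 2.7 in OC.Sed, 24.8 ± 2.96 in Con.VWR and 24.3 ± 0.722 in Con.Sed (SD, n = 5 each) and did not pass (log2 fold change 0.11, adjusted p = 0.218). The H/ACA proteins Gar1, Nop10 and Nhp2, which belong to the snoRNPs that guide pseudouridylation, had log2 fold changes of 0.24, 0.19 and 0.18 and did not pass either. Nop56 and Nop58 carry 5 and 4 annotated snoRNA genes within their bounds in GENCODE vM21, as do Wdr43 (3), Tsr1 (2), Gnl3 (3) and Ncl (3).

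Among the small-subunit factors 5 of 17 rose, namely Rrp12, Wdr43, Utp18, Tsr1 and Ltv1. Rrp12 (chr19:41862851-41896173 on GRCm38, minus strand), a HEAT-repeat protein known in yeast for the export of pre-ribosomes, differed most. It reached 11.3, 14.5, 9.62, 11.6 and 11.2 CPM in OC.VWR mice, against 10.1, 8.55, 6.96, 9.22 and 7.79 CPM in Con.VWR mice. It reached 17.1, 13.9, 12.1, 11.7 and 12.4 CPM in OC.Sed mice, against 7.54, 7.65, 3.84, 6.72 and 4.86 CPM in Con.Sed mice. All 5 OC.Sed libraries lay above all 5 Con.Sed libraries, while 1 OC.VWR library lay below the highest Con.VWR library. The log2 fold change was 0.79 (SE 0.12, 1.73-fold, adjusted p = 3.91e-05) averaged over activity. It was 1.14 (SE 0.17, 2.20-fold, adjusted p = 0.00011) in sedentary mice and 0.45 (SE 0.16, adjusted p = 0.0722) in running mice.

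Wdr43 and Utp18 are WD-repeat proteins of the small-subunit processome, the first large precursor of the 40S subunit. Utp18 reached 21.4, 24, 20.9, 23.7 and 20.9 CPM in OC.VWR mice, against 19.6, 17.1, 16.9, 17.2 and 15.8 CPM in Con.VWR mice. It reached 23.3, 21.4, 18, 21.1 and 19.3 CPM in OC.Sed mice, against 16.5, 18.4, 15, 16.5 and 21.3 CPM in Con.Sed mice. The running groups did not overlap and the sedentary ones did, through Con.Sed replicate 5. Utp18 was 1.23-fold and Wdr43 1.26-fold higher averaged over activity (adjusted p = 0.00314 for both). Tsr1, a GTPase-like protein bound to late pre-40S particles, was 1.28-fold higher (adjusted p = 0.00873), and Ltv1, which leaves those particles shortly before they mature, was 1.24-fold higher (adjusted p = 0.0145). Exons of Tsr1 share 1240 bases with those of Srr on the other strand. The libraries were stranded, but the strand setting of the counting is not given in the sources used here, so reads of such pairs may be mixed. The 12 small-subunit factors that did not pass ran from 0.00 (Utp3) to 0.25 (Noc4l) on the log2 scale. They include Utp20 at 0.23 (adjusted p = 0.083), Heatr1 at 0.13 and the 18S rRNA acetyltransferase Nat10 at 0.13.

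**Figure D3:**
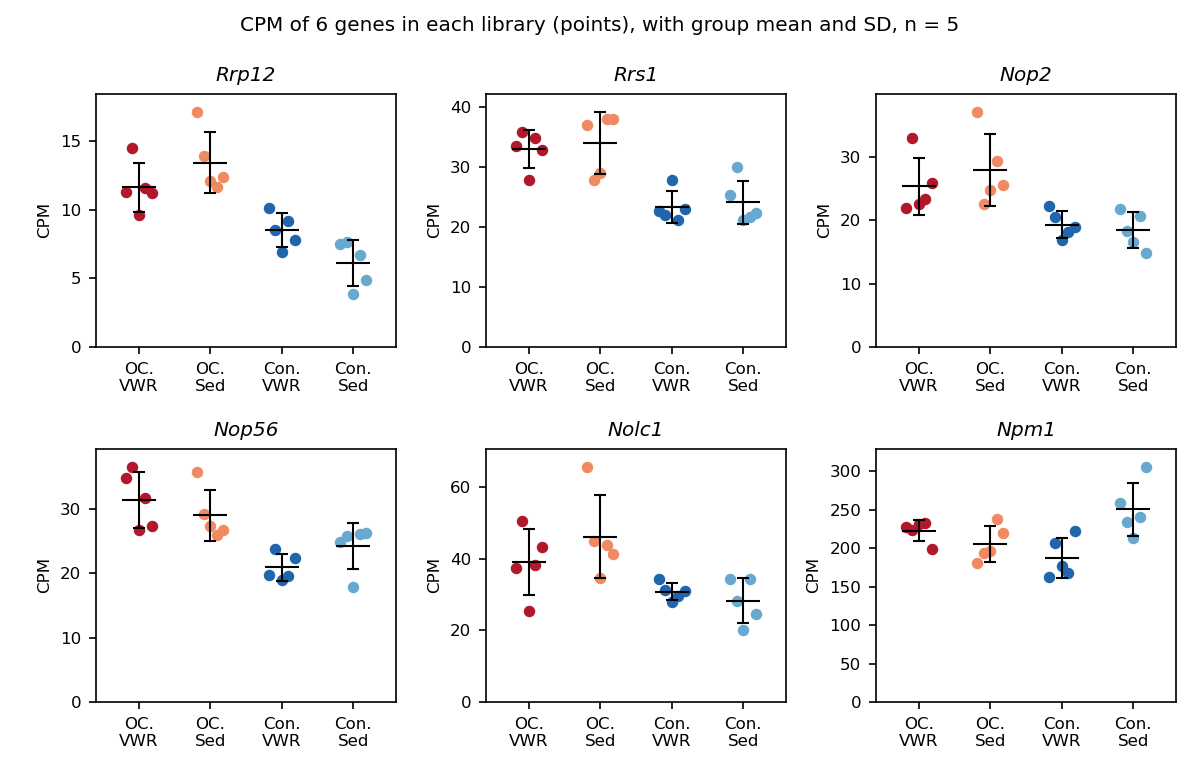
CPM of Rrp12, Rrs1, Nop2, Nop56, Nolc1 and Npm1 in each library (points), with the mean (long bar) and SD (capped bar) of the 5 libraries of each group; each axis starts at 0. Rrp12 sits highest in OC.Sed (11.7 to 17.1 CPM) and lowest in Con.Sed (3.84 to 7.65 CPM), while Npm1 is highest in Con.Sed (213 to 305 CPM).

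The large-subunit factors held the most genes that rose, 9 of 15, with a median log2 fold change of 0.25. Rrs1 (chr1:9545408-9547455, plus strand), which in yeast brings the 5S ribonucleoprotein into the pre-60S particle, reached 33.5, 35.8, 27.8, 34.8 and 32.8 CPM in OC.VWR mice, against 22.7, 22, 27.8, 21.1 and 22.9 CPM in Con.VWR mice. It reached 37, 27.8, 29, 38 and 37.9 CPM in OC.Sed mice, against 25.3, 29.9, 21.2, 21.7 and 22.3 CPM in Con.Sed mice. In each vehicle group 1 library reached into the OC range, Con.VWR replicate 3 and Con.Sed replicate 2. The log2 fold change was 0.50 averaged over activity (SE 0.08, 1.41-fold, adjusted p = 0.000122) and 0.50 in each activity (adjusted p = 0.00635 in running and 0.00621 in sedentary mice).

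Nop2, a methyltransferase of the large-subunit rRNA, reached 22, 32.9, 22.6, 23.3 and 25.9 CPM in OC.VWR mice, against 22.2, 20.5, 16.9, 18.1 and 18.9 CPM in Con.VWR mice. It reached 37, 22.6, 24.8, 29.4 and 25.6 CPM in OC.Sed mice, against 21.8, 18.3, 16.6, 20.7 and 14.8 CPM in Con.Sed mice. The sedentary groups did not overlap, and the running ones overlapped only between 22 and 22.2 CPM. Nop2 was 1.41-fold higher averaged over activity (log2 0.49, SE 0.10, adjusted p = 0.000833) and 1.51-fold higher in sedentary mice (adjusted p = 0.00633).

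Bop1 forms with Pes1 and Wdr12 the PeBoW complex, which acts in the processing of the large-subunit rRNA. It reached 39.3, 36.8, 36, 37.5 and 37.9 CPM in OC.VWR mice, against 34.8, 28.7, 29.9, 32.6 and 26.7 CPM in Con.VWR mice. It reached 40.5, 35.8, 32.6, 28.8 and 35.3 CPM in OC.Sed mice, against 23.9, 31.6, 28.7, 22.9 and 23.4 CPM in Con.Sed mice. The running groups did not overlap, yet only the sedentary comparison passed, at a log2 fold change of 0.41 (SE 0.10, adjusted p = 0.0106), against 0.29 (adjusted p = 0.0583) in running mice. Averaged over activity Bop1 was 1.28-fold higher (adjusted p = 0.00115). Its partners did not pass, at log2 fold changes of -0.02 for Pes1 (SE 0.06, adjusted p = 0.824) and 0.02 for Wdr12 (SE 0.08, adjusted p = 0.889).

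Rrp1b, a nucleolar protein of pre-60S particles, had lower levels. It reached 9.42, 10.5, 6.41, 8.34 and 12.3 CPM in OC.VWR mice, against 6.4, 6.78, 6.49, 5.8 and 6.5 CPM in Con.VWR mice. It reached 8.82, 8.07, 8.91, 8.07 and 9.23 CPM in OC.Sed mice, against 6.46, 6.43, 4.6, 7.08 and 3.27 CPM in Con.Sed mice. The sedentary groups did not overlap, and in running mice 1 OC library, replicate 3, lay within the vehicle range. The fold was 1.51 averaged over activity (log2 0.59, SE 0.12, adjusted p = 0.00119). Its paralog Rrp1 had a log2 fold change of 0.00.

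Nop16, Gnl3 (nucleostemin, a GTP-binding protein) and Wdr74 rose in running mice with no overlap between OC.VWR and Con.VWR. Nop16 reached 40.3, 37.3, 38, 34.6 and 32.7 CPM in OC.VWR mice, against 23.6, 29.1, 29.8, 22 and 29.4 CPM in Con.VWR mice (1.36-fold, adjusted p = 0.00697). Gnl3 reached 45.4, 46.5, 31.6, 39.2 and 37.1 CPM in OC.VWR mice, against 28.6, 30, 26.2, 24.8 and 28.2 CPM in Con.VWR mice (1.45-fold, adjusted p = 0.00714). Wdr74 reached 30.3, 24.3, 25.1, 20.3 and 20.8 CPM in OC.VWR mice, against 18.4, 19.3, 15.7, 18.6 and 15.2 CPM in Con.VWR mice (1.38-fold, adjusted p = 0.00747). In sedentary mice the groups overlapped for each of these genes. Nop16 had 26.6 to 36 CPM in OC.Sed and 26.7 to 34.3 CPM in Con.Sed. Gnl3 had 34.7 to 44.2 CPM in OC.Sed and 27.4 to 44.8 CPM in Con.Sed, and Wdr74 had 17.9 to 24.7 CPM in OC.Sed and 17.6 to 21.1 CPM in Con.Sed. Averaged over activity Nop16 was 1.19-fold, Gnl3 1.24-fold and Wdr74 1.24-fold higher (adjusted p = 0.0159, 0.0149 and 0.00637). Grwd1, whose yeast counterpart is a chaperone of a large-subunit ribosomal protein, was 1.31-fold higher (adjusted p = 0.0171), and Noc2l 1.12-fold (adjusted p = 0.034). Noc2l was the 1 gene of the 18 whose call did not hold when single libraries were left out. It missed the threshold (adjusted p of 0.0524 to 0.0947) without replicate 1 or 5 of OC.VWR, 1 or 3 of OC.Sed, 2, 3 or 5 of Con.VWR, or 3 or 5 of Con.Sed.

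Of the 4 multifunctional nucleolar proteins, Nolc1 and Mybbp1a rose, and Npm1 and Ncl did not pass. Nolc1, which escorts snoRNPs between the nucleolus and Cajal bodies, reached 37.5, 50.6, 25.4, 38.2 and 43.4 CPM in OC.VWR mice, against 34.3, 31.4, 28, 29.6 and 31.1 CPM in Con.VWR mice. It reached 65.6, 45.1, 34.6, 44 and 41.4 CPM in OC.Sed mice, against 34.4, 28.1, 20, 34.4 and 24.6 CPM in Con.Sed mice. The sedentary groups did not overlap (34.6 CPM was the lowest OC.Sed and 34.4 the highest Con.Sed value), and OC.VWR replicate 3 lay below all Con.VWR libraries. Nolc1 was 1.44-fold higher averaged over activity (adjusted p = 0.00398) and 1.63-fold higher in sedentary mice (adjusted p = 0.00995). Mybbp1a, a regulator of rRNA gene transcription and processing, was 1.18-fold higher averaged over activity (adjusted p = 0.00491), with 66.3 to 82.1 CPM in the 10 OC libraries and 55.7 to 75.9 CPM in the 10 vehicle libraries. Ncl (nucleolin), which binds nascent rRNA, averaged 209 ± 32.6 CPM on OC and 220 ± 24.3 CPM on vehicle (SD, n = 10 each; log2 fold change -0.07, SE 0.09, adjusted p = 0.594).

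Npm1 (nucleophosmin), the main histone and ribosomal protein chaperone of the nucleolus, had differences of opposite sign in the 2 activities that did not pass. It had 228, 223, 231, 233 and 199 CPM in OC.VWR mice, against 162, 206, 177, 167 and 222 CPM in Con.VWR mice. It had 180, 194, 196, 238 and 220 CPM in OC.Sed mice, against 258, 234, 213, 241 and 305 CPM in Con.Sed mice. Both pairs overlapped. The log2 fold change was 0.25 (SE 0.11, adjusted p = 0.132) in running mice and -0.28 (SE 0.11, adjusted p = 0.0812) in sedentary mice, and neither passed.

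Taken by activity, OC raised 10 of the 42 genes in running mice and 10 in sedentary mice and lowered 0 in either. Of all genes tested, 7.08% were higher and 5.94% lower on OC in running mice, and 8.96% were higher and 7.07% lower in sedentary mice. At an unadjusted p below 0.05, 0 of the 42 genes were lower in running mice and 1, Npm1, in sedentary mice. There DESeq2 also called it lower (adjusted p = 0.0433) and limma voom called 0. In either direction, 19 of the 42 genes in running and 16 in sedentary mice had an unadjusted p below 0.05. Of all 10207 genes tested, 2866 and 3117 did. The median log2 fold change of the 42 genes was 0.25 in running mice (all genes 0.01) and 0.18 in sedentary mice (all genes -0.01). In 33 genes (78.6%) both differences were positive, against 30.1% of all genes tested. Wdr43, Rrs1 and Rrp1b passed in both activities, 30% of each set of 10. Over all genes 334 were higher in both, 46.2% of those higher in running and 36.5% of those higher in sedentary mice. The adjusted p of Wdr43 was 0.0413 in running and 0.0466 in sedentary mice. The others that passed in running mice were Nop56, Nop16, Gnl3, Wdr74, Utp18, Ltv1 (1.35-fold) and Nop58 (1.34-fold). The others that passed in sedentary mice were Rrp12, Nop2, Nolc1, Bop1, Tsr1 (1.37-fold), Mybbp1a (1.22-fold) and Grwd1 (1.43-fold). In 8 genes all OC.VWR libraries lay above all Con.VWR libraries, against 5.44% of all genes, and in 5 genes all OC.Sed libraries lay above all Con.Sed libraries, against 7.01% of all genes.

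**Figure D4:**
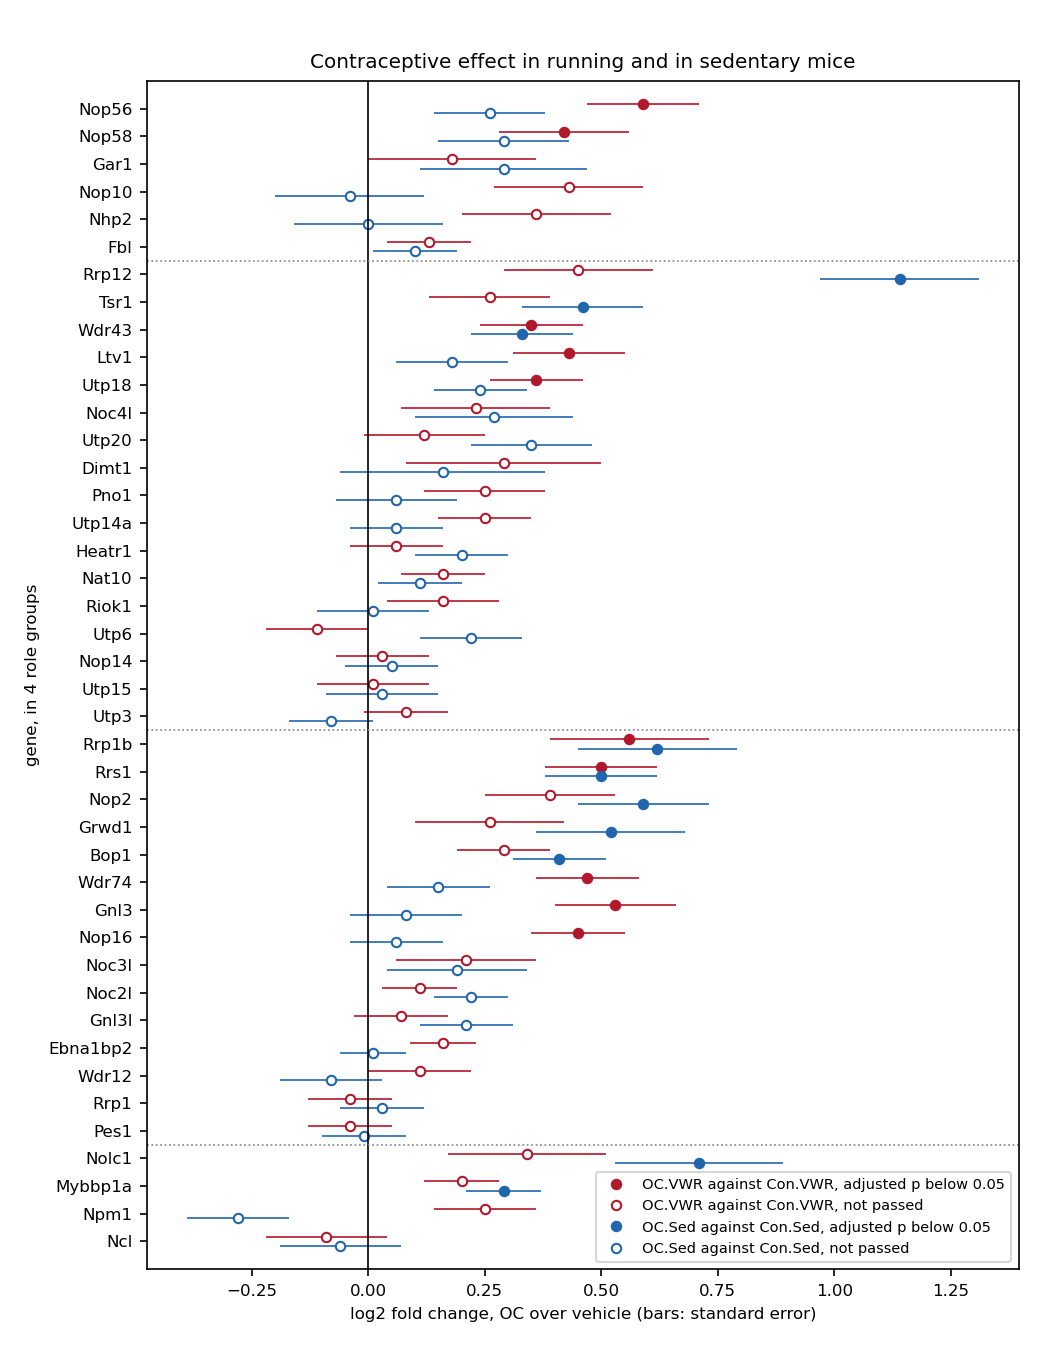
Log2 fold change of OC over vehicle with its standard error for each tested gene (rows, in 4 role groups), in running mice (red) and in sedentary mice (blue); filled points have an adjusted p below 0.05. The points lie mostly right of 0 in both, with Rrp12 farthest right in sedentary mice at 1.14 and Npm1 on opposite sides at 0.25 and -0.28.

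The counts within 1 activity moved with single libraries. In running mice 6 genes passed without OC.VWR replicate 1 or without Con.VWR replicate 3, while the higher calls over all genes numbered 449 and 523 in these fits, against 723 with all libraries. In sedentary mice 5 passed without OC.Sed replicate 1 and 6 without Con.Sed replicate 3 or 5, with 547, 738 and 639 higher calls over all genes, against 915 with all libraries. Nop56, Utp18, Rrs1, Nop16, Wdr74 and Gnl3 in running mice, and Rrp12, Rrs1, Nop2 and Nolc1 in sedentary mice, passed whichever library was left out. Of the calls made in both activities, those of Wdr43 were lost in 8 of 20 such fits in running and 14 of 20 in sedentary mice, and those of Rrp1b in 7 and 2. Without Con.Sed replicate 2, the library that stands apart, 11 genes passed in sedentary mice and 20 averaged over activity. The higher calls over all genes then numbered 919 and 1352, against 915 and 1207 with all libraries.

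In the same edgeR test of running against sedentary mice, on either diet or averaged over diet, 0 of the 42 genes and 0 of the 10207 genes tested (0.00%) passed. At an unadjusted p below 0.05 there were 4 of the 42 genes on vehicle, 0 on OC and 2 averaged over diet, against 13.7%, 6.83% and 4.75% of all genes. DESeq2 called 42, 1 and 2 genes of all in these comparisons, limma voom 0 in each, with or without sample weights. The medians over the 42 genes were -0.02 on vehicle, 0.01 on OC and 0.01 averaged. On vehicle the smallest p-values were those of Npm1 (log2 fold change -0.42, SE 0.11, adjusted p = 0.214), Gnl3 (-0.41, SE 0.13, adjusted p = 0.241), Rrp12 (0.48, SE 0.17, adjusted p = 0.272) and Bop1 (0.23, SE 0.10, adjusted p = 0.347). Npm1 had 162 to 222 CPM in Con.VWR and 213 to 305 in Con.Sed, and DESeq2 called it (adjusted p = 0.0451). Gnl3 had 24.8 to 30 CPM in Con.VWR and 27.4 to 44.8 in Con.Sed. On OC they were those of Nop16 (0.21), Ltv1 (0.24), Nop10 (0.30) and Wdr74 (0.20), each at an adjusted p of 0.684. Nop10 had 43.6 to 80 CPM in OC.VWR and 34.4 to 52.4 in OC.Sed, and Ltv1 had 16.3 to 21.6 CPM in OC.VWR and 13.9 to 17.4 CPM in OC.Sed. Averaged over diet they were those of Bop1 (0.17), Gnl3 (-0.19), Npm1 (-0.15) and Utp14a (-0.10), with adjusted p of at least 0.955.

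The difference between the OC effects in running and in sedentary mice was tested as an interaction. It passed in 0 of the 42 genes and 0 of all genes (0.00%), and 6 of the 42 had an unadjusted p below 0.05, against 17.6% of all genes. DESeq2 called 119 genes of all, limma voom 0 and limma voom with sample weights 4. Npm1 had the smallest p, at a log2 difference of 0.53 (SE 0.15, adjusted p = 0.199), and was the 1 gene of the 42 that DESeq2 called (0.54, adjusted p = 0.0291). Next came Rrp12 (-0.68, SE 0.24, adjusted p = 0.202), Nop16 (0.39, SE 0.15, adjusted p = 0.225) and Gnl3 (0.46, SE 0.18, adjusted p = 0.225). So the genes that passed in running mice but not in sedentary mice, and the reverse, were not shown to differ between the activities.

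Other genes of the pathway were counted in the same test of OC averaged over activity. They were listed by function, but with earlier results of these data known. Among other large-subunit factors 17 of 42 rose and 0 fell (median log2 fold change 0.18), led by Ccdc86 (1.51-fold, adjusted p = 0.00012), Urb2 (1.31-fold, adjusted p = 0.000461) and Nol8 (1.44-fold, adjusted p = 0.000572). That count was 11 without OC.Sed replicate 1, a fit with 989 higher calls over all genes, against 1207 with all libraries. Among other small-subunit factors 10 of 39 rose and 0 fell (median 0.11), led by the helicase Dhx37 (1.43-fold, adjusted p = 0.000128), Wdr75 (1.29-fold, adjusted p = 0.000132) and Bysl (1.62-fold, adjusted p = 0.000283). In the RNA exosome, which trims rRNA precursors, 4 of 13 rose and 0 fell (median 0.13), with Exosc8 at 1.51-fold, Exosc1 at 1.30-fold and Exosc4 at 1.27-fold. RNA polymerase I and its factors, which transcribe the rRNA genes, had 2 of 13 higher and 0 lower (median 0.06), Polr2l (1.31-fold, adjusted p = 0.00155) and Polr1e (1.51-fold, adjusted p = 0.00219). Other snoRNP factors had 1 of 9 higher, Rpap3 (1.42-fold, adjusted p = 0.000208), and 0 lower (median 0.02). Factors of pre-ribosome export and late maturation had 0 of 9 in either direction in edgeR (median 0.01). At an unadjusted p below 0.05 they had 2 higher and 0 lower, against 3611 of all 10207 genes in either direction. The shares for the polymerase, snoRNP and export lists, 2 of 13, 1 of 9 and 0 of 9, lay near or below the 11.8% of all genes.

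In the Myc network 2 of 8 genes rose and 1 fell, against 11.8% higher and 10.9% lower over all genes tested. Myc itself averaged 34.6 ± 14.5 CPM in OC.VWR, 66.8 ± 78 in OC.Sed, 6.55 ± 4.1 in Con.VWR and 19 ± 20.7 in Con.Sed (SD, n = 5 each). The values scattered widely, from 23.2 to 55.2 CPM in OC.VWR and 21.4 to 205 in OC.Sed, against 3.17 to 12.9 in Con.VWR and 4.24 to 50.5 in Con.Sed. The groups did not overlap in running mice and overlapped in sedentary mice. Yet no gene of the network, Myc included, was called higher in either activity alone. Averaged over activity Myc was 4.31-fold higher (log2 2.11, SE 0.55, adjusted p = 0.0104), and the log2 fold change stayed between 1.58 and 2.49 when single libraries were left out. Its paralog Mycl was lower (log2 fold change -0.97, adjusted p = 0.00014), at 10.2 ± 2.93 CPM in OC.VWR and 12 ± 1.91 in OC.Sed, against 20.8 ± 7.58 in Con.VWR and 22.7 ± 4.48 in Con.Sed. Mlx was 1.22-fold higher (adjusted p = 0.0475), a call that was lost under 18 of 28 other settings. Whether Myc had a part in the ribosome biogenesis results was not tested.

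After group means were removed, many pairs of the 42 genes had positive correlations across the 20 libraries. The median Pearson r over their 861 pairs was 0.24 (quartiles 0.00 and 0.45), against 0.00 (quartiles -0.23 and 0.23) over all pairs of tested genes, and 20.6% of their pairs exceeded 0.5, against 6.28% of all pairs. The closest pairs were Wdr43 with Nolc1 (r = 0.87), Rrp12 with Nolc1 (0.81), and Rrp1 with Ncl and Rrp1b with Grwd1 (0.80 each). Rrp12 and Nolc1 had the highest median r with the other genes (0.43 each), and Npm1 (-0.15) and Nop10 (-0.11) the lowest. Bop1 and Npm1 went in opposite directions (r = -0.74), as did Nop10 and Ncl (-0.84). These are descriptions over libraries that share depth and RNA quality between genes, and no p is attached.

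Markers of liver cell types also differed with diet. Of 5 hepatocyte markers measured, Cps1, Alb, Apoa1 and Ttr fell and Tat rose on OC averaged over activity. All 6 measured markers of stellate cells and fibroblasts fell, with sums of 347 to 529 CPM in OC.VWR and 351 to 567 in OC.Sed, against 508 to 649 in Con.VWR and 549 to 719 in Con.Sed. Of 5 Kupffer cell markers Csf1r rose, with sums of 168 to 229 CPM in OC.VWR, 193 to 265 in OC.Sed, 138 to 207 in Con.VWR and 161 to 224 in Con.Sed. Of 5 markers of proliferating cells Pcna and Mki67 fell, with sums of 36.3 to 48.7 CPM in OC.VWR and 38.8 to 44.8 in OC.Sed, against 40.5 to 78.1 in Con.VWR and 39.7 to 138 in Con.Sed. Both measured neutrophil markers, S100a8 and S100a9, rose on OC in running mice and did not pass averaged over activity, with sums of 1.75 to 13.5 CPM in OC.VWR and 2.17 to 4.73 in OC.Sed, against 1 to 2.23 in Con.VWR and 2.3 to 7.48 in Con.Sed. Within 1 activity, Cps1, Alb and Ttr fell in running mice and Alb, Apoa1 and Ttr in sedentary mice, 3 of the 6 stellate markers fell in running and 6 in sedentary mice, and Csf1r rose and Pcna fell in sedentary mice but did not pass in running mice, differences that were not tested. Of the 5 cholangiocyte and 5 endothelial markers 0 passed, averaged or in either activity, and no measured marker was at 0 throughout. The part of these shifts in the ribosome biogenesis results was not tested.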

How the data were processed

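Per the labels' protocols, 20 stranded libraries were read from both ends. The submitters' processing notes name STAR, the build mm10, R 4.05 and limma. What counted the reads, on which annotation and with which strand setting, is not given in the sources used here. The unit deposited by the authors was judged from the values to be expected counts, because 2 genes held values that were not whole. The design had assumed plain counts. Every value used was whole, so rounding changed nothing. Of 35504 genes, 23993 had intact lines. The others held a 1 followed by 0 (9824), counts moved by 1 place (570), text (309), an undecided low line (806) or values that were not whole (2), and were left out.

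Testing used edgeR 4.0.16 (R 4.3.3). The filterByExpr step left 10207 genes with 99.95% of the counts on intact lines, and TMM factors ran from 0.904 to 1.114. All 20 libraries entered 1 quasi-likelihood fit of the 4 group means, at a common biological coefficient of variation of 0.178. From it came 7 contrasts, adjusted by Benjamini-Hochberg over the genes tested at a threshold of 0.05. The averaged contrast shares its libraries with both single-activity contrasts, and the OC and running contrasts share groups. Depths of 10883936 to 16134618 counts per library on intact lines limit the precision of low genes such as Rrp1b. The steps were also run on simulated data, and the outcome is not reported here. Log2 CPM used a prior count of 2.

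Alternatives were edgeR's RLE factors, library totals, other filters, DESeq2 1.42.0, limma 3.58.1 voom with and without sample weights, moved lines put back, the compared groups alone, and each library left out. The genes and lists were chosen with earlier results of these data known. For each contrast the text gives every library's value for up to 6 called genes with the smallest adjusted p in each direction, names the other called genes, and, where fewer than 4 were called, gives the 4 with the smallest p. Up to 3 called genes per direction are named from each other list. Gene coordinates are from GENCODE vM21 on GRCm38 and promoters from RefSeq on GRCm38.p6. No protein sequences were used here, and the result of 1 marker list is not reported here.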

Additional observations from a re-analysis of the deposited data

Results flagged for a closer look

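In 10 of 168 checks (42 genes in 4 groups of 5 mice), 1 library stood far from the other 4 of its group by Dixon's criterion, which chance alone meets in about 1 in 20 groups. Among small-subunit and snoRNP genes, Nop56 was low in Con.Sed replicate 3 (17.9 CPM, the others 24.9 to 26.3), Fbl was high in Con.Sed replicate 5 (25.6 CPM, the others 23.9 to 24.1), and Gar1 was low in Con.VWR replicate 4 (3.74 CPM, the others 4.56 to 4.86). Utp15 was low in OC.Sed replicate 2 (9.63 CPM, the others 10.7 to 11.1), Noc4l was high in OC.VWR replicate 2 (14.4 CPM, the others 8.83 to 10.2), and Nat10 was high in Con.Sed replicate 4 (28 CPM, the others 24.2 to 25.2). Among large-subunit genes, Rrs1 was high in Con.VWR replicate 3 (27.8 CPM, the others 21.1 to 22.9), and Ebna1bp2 was high in Con.Sed replicate 2 (31 CPM, the others 25.8 to 26.8). Mybbp1a was low in 1 library of each OC group, replicate 3 of OC.VWR (66.3 CPM, the others 79 to 82.1) and replicate 4 of OC.Sed (68.1 CPM, the others 76.6 to 79.2). The calls of Nop56 and Rrs1 in running mice, and of Nop56, Rrs1 and Mybbp1a averaged over activity, held whichever library was left out.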

How the results depend on the processing

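Scaling by library totals alone raised the values. The median log2 fold change on OC was then 0.29 in sedentary mice, 0.36 in running mice and 0.32 averaged. Of the 42 genes, 18 passed as higher in running mice and 29 averaged. Over all genes 1383 passed as higher in running mice, against 723 in the main fit, and 2550 averaged, against 1207. That scaling also raised the median of all genes by 0.11 to 0.12, and the share of all calls that were higher was 81.4% instead of 52.1% averaged, 83% instead of 55.9% in sedentary and 80.9% instead of 54.4% in running mice. Voom with sample weights gave 16 higher in running mice (1142 of all genes, against 723), and a fit to the compared groups alone gave 6 higher in sedentary mice (621 of all genes, against 915). DESeq2 called Npm1 as 1 lower on OC in sedentary mice (adjusted p = 0.0433), as 1 lower with running on vehicle, and as 1 higher in the interaction. The causes were not tested. Under these and the other settings apart from leaving out libraries in turn, 444 values of the named genes kept direction and side of the threshold, 14 lost the call and 2 gained it, with 0 reversed. The 444 include values of genes not called in a contrast, which had no call to lose.

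With each library left out in turn, the count of higher genes ran from 5 to 11 in sedentary mice, 6 to 12 in running mice and 17 to 20 averaged. Over all genes tested it ran from 547 to 1001, 449 to 907 and 989 to 1352 in the same fits. The count of lower genes of the 42 in sedentary mice was 0 to 1 (Npm1, without OC.Sed replicate 4 or Con.Sed replicate 3). Of the named genes' values 1007 then kept their side of the threshold and direction, 73 lost the call and 0 reversed. The 1007 include values of genes not called in a contrast, which had no call to lose. Of the calls made, 17 of 18 averaged, 6 of 10 in running mice and 4 of 10 in sedentary mice held in every such fit. The median ran from 0.13 to 0.23, 0.21 to 0.26 and 0.17 to 0.23 for OC, and for running from -0.08 to 0.04 on vehicle, -0.03 to 0.05 on OC and 0.00 to 0.03 averaged, with -0.03 to 0.06 for the interaction. Of the other pathway genes named, 14 of 15 kept their call under all 28 settings, which were added for them after seeing the data, the exception being Mlx. Rrp9, put back from a moved line in 19 libraries, had a log2 fold change of 0.26 averaged (SE 0.11, adjusted p = 0.108).

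No paired analysis was possible because the labels give no replicate numbers or pairing. The replicate numbers used here follow the order of the deposited samples within each group. Exons of 18 of the 42 genes share bases with a gene on the other strand. Depth limits the precision of the low genes most.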
